A study of Sus scrofa with 15 samples.

Results

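The testis and the ovary form from the same early gonad, and a small set of transcription factors and signals sets which of them it becomes. WT1, GATA4 and NR5A1 are needed to build the early gonad, SOX9 with its relative SOX8 and DMRT1 then hold the supporting cells on the Sertoli cell course, and FOXL2 with the WNT4 and R-spondin signals holds them on the granulosa cell course of the ovary. NR0B1 is a repressor that works against NR5A1. In the postnatal testis most of the testis-side factors are still made by Sertoli cells, whereas FOXL2 is known as a factor of the ovary. FOXL2 can also activate CYP19A1, the gene of aromatase, which makes estrogen.

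The genes described here were chosen by name, as 10 listed genes of gonad fate: FOXL2, SOX9, SOX8, DMRT1, WT1, NR5A1, GATA4, NR0B1, WNT4 and RSPO1. In the table of 30476 genes 9 of them were found under their symbol, and WNT4 was not analysed here. Of these 9, 8 passed the filter on low counts, and FOXL2 was under it. RNA was taken from whole testes of male Dutch Landrace Duroc piglets at postnatal day 21, after feeding on 1 of 5 diets from postnatal day 2. The diets were sow milk (Sow), a cow's milk formula (Milk), a soy formula (Soy), the same cow's milk formula with estradiol (M + E2), and the same cow's milk formula with the soy isoflavone genistein (M + G). M + E2 was the positive control for estrogen action, and all piglets had suckled a sow before the diets began. Each diet had 3 RNA-seq libraries, 15 in all, with 6097552 to 9488579 reads on genes (median 8198038).

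The library Sow 2 was left out of the tests, and its values are given beside the rest. One Sow and one Soy column carry no number and are called unnumbered. Levels are CPM, which are reads scaled to a common library size with a correction for library composition. A gene was called when its p from edgeR's quasi-likelihood test, adjusted by Benjamini-Hochberg over all 15634 genes tested, was at most 0.05 and its change was at least 2-fold. Across the 5 diets at once the adjusted p alone was used. The libraries Milk 2, Soy 3 and M + G 2 stood apart: the summed level of 6 peritubular myoid (contractile) markers was 3559, 4393 and 2693 CPM in them and 356 to 1133 CPM in the other 12. In whole testis, fewer cells of a type and less RNA per cell cannot be told apart.

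With estradiol, reads of FOXL2 were present in every library and WT1 and the SOX9 target AMH, the hormone of Sertoli cells, were higher than in any library of another diet. NR0B1 was higher with sow milk than with any formula. The share of all genes with libraries apart in these ways was not counted. In the fit of 14 libraries these differences did not pass the test, and none of the 8 genes was called in any of the 9 tests. Across the 5 diets 0.064% of all genes were called, and the adjusted p of the members ran from 0.222 for WT1 to 0.861 for NR5A1. In M + E2 against Sow 5% of all genes were called, so a count of 0 among 8 is near the background. The shares called were 0.0576% in M + G against Sow, 0.0128% in Soy against Sow, 0.0192% in Milk against Sow and 0.0192% in M + E2 against the mean of the other 3 formulas. They were 0% in all 3 comparisons with Milk. At an unadjusted p under 0.05, 2 of the 8 passed in M + E2 against Sow, beside 33.8% of all genes. The number was 3 in M + E2 against Milk, beside 17.7%, and 3 in M + E2 against the other formulas, beside 16.9%. It was 3 across the 5 diets, beside 18.1%, 1 in M + G against Sow, beside 23.6%, 2 in Soy against Sow, beside 15%, and 4 in Milk against Sow, beside 12.1%. None passed in M + G or Soy against Milk, beside 2.6% and 2.44%.

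**Figure D1:**
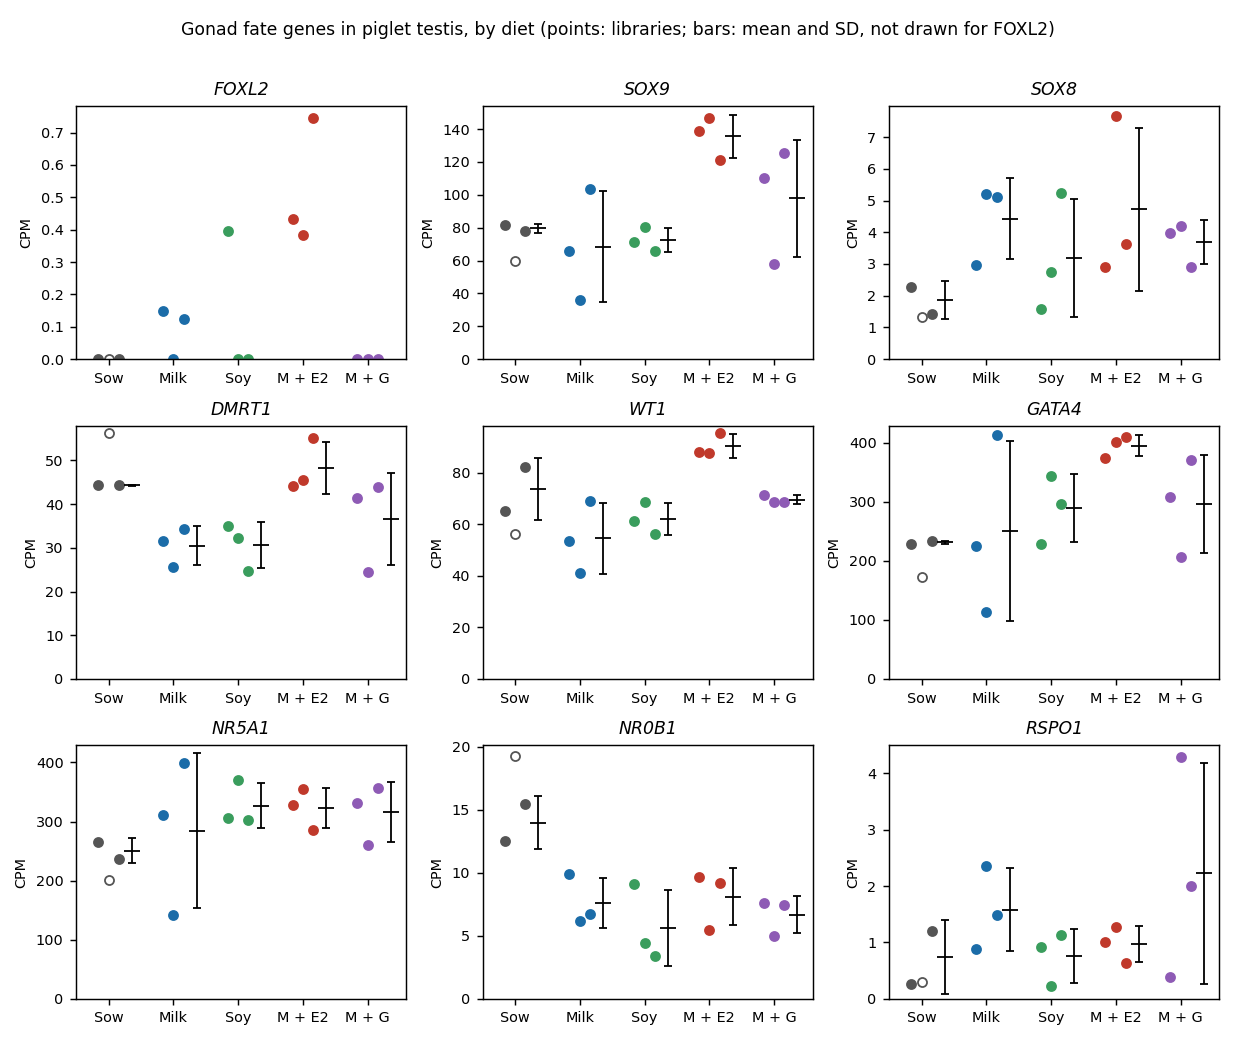
Level of each of the 9 genes in CPM (vertical axes, linear from 0) in every library, by diet; points are libraries, the open point is Sow 2, and the black bars are the mean and SD of 3 libraries (of 2 for Sow, without Sow 2). The 3 M + E2 libraries have reads for FOXL2 and lie above every other library for WT1, whereas for NR0B1 the Sow libraries lie above all formula libraries.

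The plot of levels by library shows how differently the 9 genes were placed. FOXL2, on chromosome 13 (79708693 to 79709825, Sscrofa11.1), was at the edge of detection. Its reads numbered 3, 3 and 7 in M + E2 1, 2 and 3. They numbered 0 in each of the 3 Sow and 3 M + G libraries, 1, 0 and 1 in Milk 1, 2 and 3, and 3, 0 and 0 in Soy unnumbered, 2 and 3. Thus 13 of the 18 FOXL2 reads, 72.2%, came from M + E2, which held 17.8% of all reads, and every M + E2 library had at least 3. By the reads observed, the groups were apart against Sow, M + G and Milk but not against Soy, because Soy unnumbered, at 0.394 CPM, lay above M + E2 2, at 0.383 CPM.

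A count of 0 allows a level of up to 3 reads, 0.314 to 0.438 CPM in these libraries. M + E2 2, at 0.383 CPM, lay under that limit in Sow unnumbered (0.404 CPM), Sow 2 (0.438 CPM) and M + G 1 (0.385 CPM). By this limit, set for each library alone, M + E2 was thus not apart from Sow or M + G. The observed mean of FOXL2 in M + E2 was 1.30-fold the mean of that limit over the 3 Sow libraries. It was 1.36-fold the limit of the pair without Sow 2 and 1.51-fold that of M + G. These folds leave out the counting error of M + E2 itself. They also take the limit of each library alone, whereas several libraries without a read together bound a group's level more tightly. They are thus low as bounds for a group, and cannot be set beside the ratios that follow, which pool the reads of a group. The ratio of read rates was 6.16 against Milk (95% exact interval 1.39 to 56.2), 4.58 against Soy (1.26 to 25.1) and 8.05 against the 9 other formula libraries together (2.69 to 28.8). The intervals cover counting error only. In the edgeR fit without a filter, where 26965 genes were tested, FOXL2 was not called in M + E2 against Sow (adjusted p = 0.0944, 3.89% of genes called), against Milk (adjusted p = 0.370, 0.0223% called) or against the other formulas (adjusted p = 0.134, 0.167% called). Of 19 alternative fits, 4 gave an adjusted p of 0.05 or less against Sow. It was 0.0319 with all 3 Sow libraries, 0.0164 with only the groups compared, 0.0278 with edgeR's exact test and 0.0421 without Milk 2, Soy 3 and M + G 2. Against the other formulas it was 0.0427 without Milk 3. The study itself used edgeR's exact test, and it names FOXL2 among the mRNAs that estradiol strongly induced.

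Other genes of the ovary were read beside FOXL2. Of 4 genes made by oocytes, ZP3, FIGLA and BMP15 had 0 or 1 read in every library, whereas GDF9 had 61 to 134 reads in each. GDF9 stood at 8.81, 10.9 and 7.99 CPM in M + E2 and at 10.9 CPM or more elsewhere, and its difference against Sow was -0.44 ± 0.21 (log2, SE; edgeR adjusted p = 0.147). INHBA, listed here as a granulosa cell marker, went the other way. It was at 183, 160 and 189 CPM in M + E2 and at most 159 CPM in every other library, and was not called against Sow. CYP19A1, the aromatase gene, had a level of 1930 ± 234 CPM in M + E2 (SD, n = 3) and 4077 ± 367 CPM in Sow (SD, n = 2). Milk stood at 3356 ± 1413 CPM (SD, n = 3), and Milk 2, at 1797 CPM, lay within the range of M + E2. The difference of CYP19A1 in M + E2 against Sow was -1.14 ± 0.36 on the log2 scale (SE), and the gene was not called (edgeR adjusted p = 0.0575). CYP19A1 is also a gene of pig Leydig cells, whose STAR, the carrier of cholesterol into mitochondria, fell by 1.53 on the log2 scale in M + E2 against Sow (SE 0.41, edgeR adjusted p = 0.0449). That call was lost in 9 of 14 fits that left out 1 library, namely each of Sow unnumbered, Sow 3, Soy 2 and the M + E2 and M + G libraries (adjusted p up to 0.268).

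RSPO1, on chromosome 6 (93664839 to 93690328), is the R-spondin that strengthens WNT signals in the ovary. It had 2, 2 and 10 reads in Sow unnumbered, 2 and 3, and 6, 19 and 12 in Milk. The Soy libraries had 7, 2 and 10 reads, those of M + E2 had 7, 10 and 6, and those of M + G had 3, 41 and 18. The highest library, M + G 2, was 19.6-fold above the lowest, Soy 2, and M + G held both a low and the highest value, so all groups overlapped. The level was 2.23 ± 1.96 CPM in M + G and 0.734 ± 0.657 CPM in Sow (SD, n = 3 and 2), a difference of 1.55 ± 0.85 (log2, SE; edgeR adjusted p = 0.277). That difference was 0.66 without M + G 2, 0.90 without Sow unnumbered and 2.95 without Sow 3, and none passed. Against Milk the difference of M + G was 0.51, and without M + G 2 it was -0.38.

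**Figure D2:**
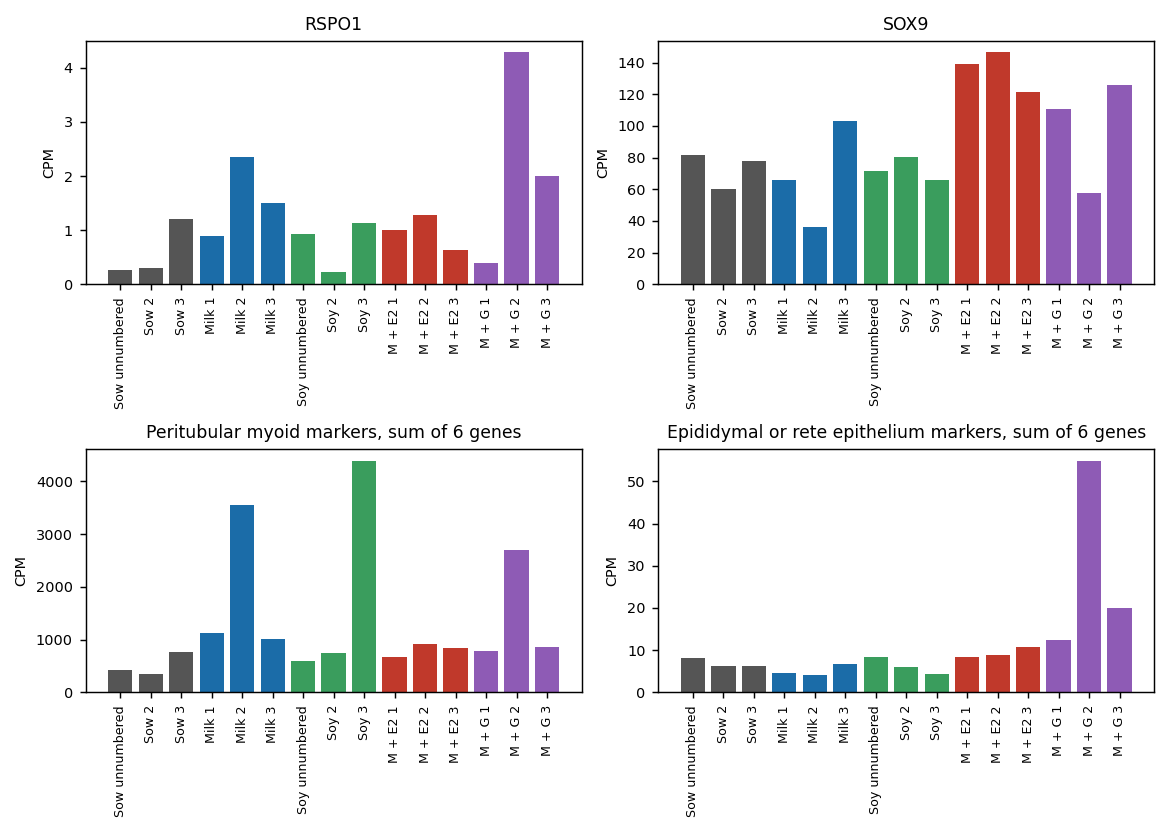
RSPO1, SOX9 and the summed levels of 6 peritubular myoid markers and of 6 markers of epididymal or rete epithelium, each in CPM (vertical axes, linear from 0), in each of the 15 libraries, coloured by diet. RSPO1 is highest in M + G 2 and Milk 2, which are also high for the myoid markers and low for SOX9, while Soy 3 is high for the myoid markers and not for RSPO1.

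The plot of RSPO1 beside marker sums shows that the libraries with the most RSPO1 were not those of 1 diet. M + G 2 had 54.9 CPM of epididymal or rete epithelium markers, against 20.03 CPM in M + G 3 and 12.45 CPM in M + G 1. The libraries of the other diets had 4.09 to 10.86 CPM, so every M + G library lay above them. In M + G 2, SOX9 was 57.6 CPM beside 110 and 126 CPM in the other M + G libraries, and in Milk 2 it was 36.2 CPM, its lowest. Their part in these values was not tested.

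SOX9, on chromosome 12 (8642154 to 8647315), is the master factor of Sertoli cell fate. It was at 139, 146 and 121 CPM in M + E2. It was at 81.7, 60.0 and 77.8 CPM in Sow unnumbered, 2 and 3, and at 65.9, 36.2 and 103 CPM in Milk. The Soy libraries had 71.5, 80.5 and 66.1 CPM and the M + G libraries 110, 57.6 and 126 CPM. All M + E2 libraries lay above all Sow, Milk and Soy libraries, and M + G 3 lay above M + E2 3. The difference was 0.70 ± 0.37 against Sow (log2, SE; adjusted p = 0.194), 0.96 ± 0.33 against Milk (adjusted p = 0.207) and 0.75 ± 0.25 against the other formulas (adjusted p = 0.178), all from edgeR. None of these passed. Without Milk 3, which had the highest SOX9 of that diet, the difference against Milk was 1.38 and passed (adjusted p = 0.0208), as did that of GATA4, at 1.19 (adjusted p = 0.0266). In that fit 8.04% of all genes were called. In M + G against Milk the difference of SOX9 was 0.52 ± 0.32 (edgeR adjusted p = 0.941), which did not pass.

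SOX8, on chromosome 3 (40825151 to 40830085), backs up SOX9 in the testis. It stood at 2.29, 1.31 and 1.44 CPM in Sow unnumbered, 2 and 3, and at 2.96, 5.21 and 5.11 CPM in Milk. Soy libraries had 1.58, 2.74 and 5.24 CPM, M + E2 libraries 2.89, 7.67 and 3.62 CPM and M + G libraries 3.98, 4.18 and 2.89 CPM. The Sow libraries lay under all Milk, M + E2 and M + G libraries and overlapped Soy. Its difference in M + E2 against Sow was 1.27 ± 0.54 (log2, SE; edgeR adjusted p = 0.119) and in Milk against Sow 1.21 ± 0.54 (adjusted p = 0.404), so neither passed. These comparisons share the Sow libraries. With all 3 Sow libraries SOX8 rose by 1.49 in M + E2 (adjusted p = 0.0253), in a fit that called 18.1% of all genes, and with only the 2 groups compared by 1.30 (adjusted p = 0.0424), in a fit that called 12.3%.

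DMRT1, on chromosome 1 (220841485 to 220953442), keeps Sertoli cells from turning to the ovarian course and also acts in germ cells. Its levels were 44.3, 56.4 and 44.3 CPM in Sow unnumbered, 2 and 3 and 44.1, 45.5 and 55.1 CPM in M + E2. They were 31.5, 25.7 and 34.4 CPM in Milk, 35.0, 32.1 and 24.7 CPM in Soy, and 41.5, 24.5 and 43.8 CPM in M + G. Thus Sow and M + E2 overlapped and both lay above all Milk, Soy and M + G libraries, M + G 3 by the least. The difference was -0.58 ± 0.24 in Milk against Sow (edgeR adjusted p = 0.395), -0.54 ± 0.24 in Soy against Sow (adjusted p = 0.323), 0.63 ± 0.22 in M + E2 against Milk (adjusted p = 0.207) and 0.06 ± 0.24 in M + E2 against Sow (adjusted p = 0.890), on the log2 scale with SE.

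WT1, on chromosome 2 (28411467 to 28456007), is the zinc finger factor that marks the supporting cells. It was at 88.0, 87.7 and 95.6 CPM in M + E2 and at 65.4, 56.2 and 82.3 CPM in Sow unnumbered, 2 and 3. It was at 53.5, 41.3 and 69.0 CPM in Milk, at 61.3, 68.5 and 56.4 CPM in Soy and at 71.5, 68.5 and 68.8 CPM in M + G. Every M + E2 library lay above every other library. The difference was 0.70 ± 0.17 against Milk (log2, SE; edgeR adjusted p = 0.186), 0.51 ± 0.14 against the other formulas (adjusted p = 0.122) and 0.23 ± 0.20 against Sow (adjusted p = 0.428), so none was called. Its unadjusted p across the 5 diets, 0.0152, was the smallest of the 8. Without Milk 3 its adjusted p across the 5 diets was 0.0451, in a fit that called 6.67% of all genes.

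GATA4, on chromosome 14 (14858470 to 14938156), works with WT1 and NR5A1 at testis genes. It was at 375, 401 and 410 CPM in M + E2, at 229, 172 and 234 CPM in Sow unnumbered, 2 and 3, and at 225, 113 and 414 CPM in Milk. In Soy it was at 228, 344 and 297 CPM and in M + G at 309, 207 and 372 CPM. M + E2 lay above Sow, Soy and M + G, and Milk 3 lay above all of M + E2. The difference was 0.71 ± 0.41 against Sow (log2, SE; edgeR adjusted p = 0.233) and 0.63 ± 0.36 against Milk (adjusted p = 0.348).

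NR5A1, on chromosome 1 (265284491 to 265311547), the nuclear receptor of steroid-making and Sertoli cells, had the largest p of the 8 across the 5 diets. Mean levels were 251 ± 21.3 CPM in Sow (SD, n = 2), 285 ± 131 in Milk and 326 ± 38.1 in Soy (n = 3 each). They were 323 ± 34.4 for M + E2 and 316 ± 50.4 for M + G (n = 3 each). Milk alone ran from 142 CPM in Milk 2 to 400 CPM in Milk 3. No difference was called, and no unadjusted p was under 0.05.

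NR0B1, on chromosome X (26117874 to 26122951), was the only one of the 9 whose 3 Sow libraries all lay outside the range of the 12 formula libraries. It was at 12.5, 19.3 and 15.5 CPM in Sow unnumbered, 2 and 3. Milk libraries had 9.90, 6.20 and 6.72 CPM, Soy libraries 9.07, 4.39 and 3.42 CPM, M + E2 libraries 9.68, 5.50 and 9.16 CPM and M + G libraries 7.57, 5.02 and 7.45 CPM. All Sow libraries were the higher ones. The difference was -0.92 ± 0.38 for Milk (adjusted p = 0.395), -1.33 ± 0.38 for Soy (adjusted p = 0.320), -0.85 ± 0.38 for M + E2 (adjusted p = 0.135) and -1.10 ± 0.38 for M + G (adjusted p = 0.142), all against Sow on the log2 scale with SE from edgeR. None was called, and the 4 comparisons share the Sow libraries. With all 3 Sow libraries NR0B1 fell by 1.24 in M + G (adjusted p = 0.0277), in a fit that called 10.3% of all genes, and with only the 2 groups compared it fell by 1.07 (adjusted p = 0.0262), in a fit that called 5.38%.

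Other tools and sets of libraries called at most 2 of the 8 genes in a comparison. DESeq2 called WT1 across the 5 diets, where it called 6.77% of all genes, and no member in the other comparisons. Against Sow it called 8.5% of genes for M + E2, 2.11% for M + G, 0.211% for Soy and 0.205% for Milk. Against Milk it called 0.78% for M + E2, 0.0128% for M + G and 0.0384% for Soy, and 0.844% for M + E2 against the other formulas. The exact test of edgeR called SOX8 in M + E2 against Sow (12.6% of all genes) and NR0B1 in M + G against Sow (6.48%). It called no other member, beside 0.367% of genes for Soy and 0.124% for Milk against Sow, and, against Milk, 0.636% for M + E2, 0.0348% for Soy and 0.0139% for M + G. In M + E2 against Sow, SOX9, GATA4 and NR0B1 missed the call in this exact test only by the 2-fold limit. Their adjusted p in it was 5.46e-05, 4.55e-05 and 0.00974. Without Milk 2, Soy 3 and M + G 2 no member was called. That fit called 0.0586% of genes across the 5 diets, and, against Sow, 9.95% for M + E2, 0.0326% for Milk, 0.0521% for M + G and 0.00651% for Soy. It called 0% in the 3 comparisons with Milk and 0.215% for M + E2 against the other formulas. SOX9 then differed by 0.70 in M + E2 against Sow (edgeR adjusted p = 0.0330), under the 2-fold limit. With the replicate number as a block no member was called either, beside 0.0201% of genes in M + E2 against Milk and 0% in M + G against Milk.

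Counted over the 8 genes, 5 were higher in all M + E2 libraries than in both Sow libraries of the fit (SOX9, SOX8, WT1, GATA4 and NR5A1) and 1 was lower (NR0B1), beside 33.6% and 28.6% of all genes. Against Milk 3 were higher (SOX9, DMRT1 and WT1) and 0 lower, beside 9.72% and 7.77%. Against all 9 other formula libraries 2 were higher (WT1 and DMRT1) and 0 lower, beside 3.27% and 2.59%. In M + G against Sow 1 was higher and 2 lower, beside 27.5% and 26.4%, in Soy against Sow 1 and 2, beside 18.4% and 18.9%, and in Milk against Sow 1 and 2, beside 15.7% and 15.3%. No member was apart in M + G or Soy against Milk, where 2.52% and 1.95% of all genes were higher and 2.14% and 2.67% lower. The median difference of the 8 was 0.30 in M + E2 against Sow, beside 0.01 over all genes, and 0.39 in M + E2 against Milk, beside -0.03 (log2).

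**Figure D3:**
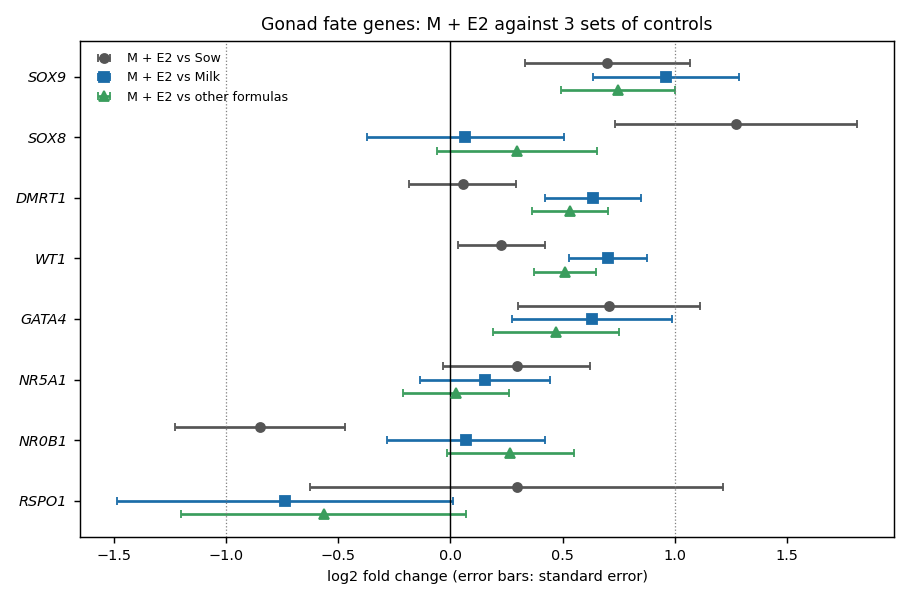
Difference of M + E2 from Sow, from Milk and from the mean of the other 3 formulas for the 8 genes past the filter (horizontal axis, log2 fold change; error bars, standard error; dotted lines, 2-fold). SOX9, SOX8, DMRT1, WT1, GATA4 and NR5A1 lie to the right of 0 in all 3 comparisons, some of them near it, and NR0B1 lies to the left of 0 only against Sow; none was called.

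The plot of M + E2 differences shows 6 of the 8 genes to the right of 0 against all 3 sets of controls, namely SOX9, SOX8, DMRT1, WT1, GATA4 and NR5A1. Between 47.3% and 50.5% of all genes were above 0 in each of these comparisons, beside 7 of the 8 genes. Over the 14 libraries of the fit, SOX9 varied most closely with GATA4 (Pearson r = 0.904), NR5A1 with GATA4 (0.872) and SOX9 with WT1 (0.836). SOX8 ran opposite to NR0B1 (-0.685). The libraries share the diets and the marker differences above, so these values describe the set only. Among 12434 other genes with a symbol, the nearest to SOX9 were NR5A2 (r = 0.983) and CAMSAP3 (0.973), to GATA4 ABCC1 (0.979) and MAP3K21 (0.970), to WT1 PLCE1 (0.915) and RHBDL3 (0.906), and to DMRT1 CLU (0.951) and TCEA3 (0.940). Those nearest to NR5A1 were FAM222A (0.959) and VWA8 (0.949), to NR0B1 NOC3L (0.930) and SHTN1 (0.926), to SOX8 DLL4 (0.927) and RPS6KA4 (0.913), and to RSPO1 COL8A2 (0.889) and LSP1 (0.866).

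Genes around these factors were read in 3 lists. M + E2 differs from Sow by the cow's milk formula as well as by estradiol, so values against Milk are given after the lists. Of the early gonad genes, 12 of 14 were tested and none was called in M + E2 against Sow, with 4 higher and 0 lower at an unadjusted p under 0.05 (14.6% and 19.2% of all genes). Among them IGF1R, a receptor of insulin-like growth factors, differed by 1.28 ± 0.41 (adjusted p = 0.0600) and GATA6, a relative of GATA4, by 0.64 ± 0.22 (adjusted p = 0.0717). Of the testis-side genes 10 of 12 were tested and none was called, with 5 higher and 0 lower. GADD45G (-0.74), FGF9 (-0.68) and DHH (-0.07) had differences below 0 (log2), and the rest of those tested had differences above 0. AMH, the Sertoli cell hormone and a target of SOX9, was at 1126, 1274 and 1194 CPM in M + E2 and at 287 to 856 CPM in the other libraries, and no library overlapped. Its difference was 1.04 ± 0.31 against Sow (edgeR adjusted p = 0.0540), just outside the threshold, and 1.24 ± 0.28 against Milk (adjusted p = 0.175). Against Sow the adjusted p was 0.05 or less in 11 of 22 alternatives, from 4.63e-05 with edgeR's exact test to 0.284 without Sow 3. Against Milk it was 0.05 or less in 3 of 23, namely 0.00327 with DESeq2, 0.0156 with edgeR's exact test and 0.0195 without Milk 3. CYP26B1, which breaks down retinoic acid in the fetal testis, differed by 0.88 ± 0.36 against Sow (adjusted p = 0.107).

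Of the ovary-side genes 16 of 20 were tested. At an unadjusted p under 0.05, 4 were higher and 2 lower in M + E2 against Sow, beside 14.6% and 19.2% of all genes. LGR5, an R-spondin receptor, was called, 1 of 16 beside 5% of all genes, and was the only call in the 3 lists. The other R-spondin receptors differed by -0.71 ± 0.23 (LGR4, adjusted p = 0.0595) and 0.90 ± 0.44 (LGR6, adjusted p = 0.165), so neither passed. It had 231, 213 and 253 reads in M + E2 and 33 to 159 in the other 12 libraries. All M + E2 libraries were above all others, at 29.2 ± 3.64 CPM (SD, n = 3) against 7.0 ± 2.28 CPM in Sow (n = 2). Milk, Soy and M + G lay between, at 11.9 ± 7.11, 12.1 ± 1.2 and 14.3 ± 3.46 CPM (SD, n = 3 each). LGR5 rose by 1.99 ± 0.41 on the log2 scale in M + E2 against Sow (edgeR adjusted p = 0.0374), and it did not pass in 8 of 14 fits that left out 1 library, namely each of Sow unnumbered, Sow 3, Soy 2, M + G 1, M + G 3 and the 3 M + E2 libraries (adjusted p up to 0.230). Against Milk LGR5 was not called (edgeR adjusted p = 0.186), and 2 of 23 alternatives gave an adjusted p of 0.05 or less. The median difference in M + E2 against Sow was 0.29 for the early gonad list, 0.65 for the testis side and 0.31 for the ovary side, beside 0.01 over all genes. Against Milk these medians were 0.37, 0.30 and 0.14, beside -0.03, and no gene of the lists was called. At an unadjusted p under 0.05, 6, 3 and 3 genes were then higher and 1, 0 and 2 lower, beside 7.23% and 10.5% of all genes.

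**Figure D4:**
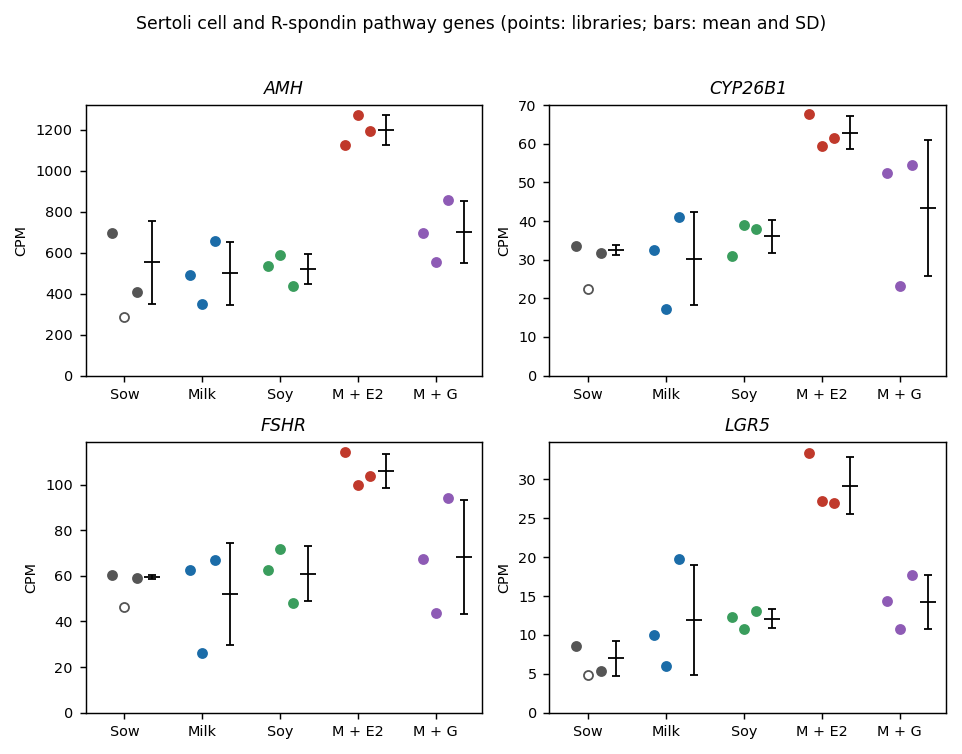
Levels of AMH, CYP26B1, FSHR and LGR5 in CPM (vertical axes, linear from 0) in every library, by diet; points are libraries, the open point is Sow 2, and the black bars are the mean and SD. For each of the 4 genes the 3 M + E2 libraries lie above the other 12. The share of all genes with libraries apart in this way was not counted, and FSHR was named after its values were seen. Among Sertoli cell markers not plotted, CST9L, GATM, CLDN11 and TF had differences below 0 in M + E2 against Sow. Those of INHA, INHBB and WNT6 were above 0.

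The plot of Sertoli cell genes and LGR5 shows the same separation for FSHR, the receptor of follicle-stimulating hormone on Sertoli cells, at 106 ± 7.46 CPM in M + E2 and 59.6 ± 0.935 CPM in Sow (SD, n = 3 and 2). Of 9 tested Sertoli cell markers none was called in M + E2 against Sow or Milk, and their median difference was 0.28 and 0.56. Against Sow the difference was above 0 for AMH, FSHR, INHA, INHBB and WNT6 and below 0 for CST9L (-0.98), GATM (-0.42), CLDN11 (-0.36) and TF (-0.29), so these differences, none of which passed, did not share a direction. Their summed level was 3442 to 3839 CPM in M + E2, 3452 to 4697 CPM in Sow and 2320 to 2883 CPM in Milk. For 7 Leydig cell markers the median was -1.07 against Sow, with 1 of 7 (STAR) called, beside 5% of all genes, and -0.64 against Milk, with none called. The medians of Milk, Soy and M + G against Sow were -0.32, -0.28 and -0.38. The summed level was 19180 to 20490 CPM in M + E2 and 34470 to 48890 CPM in Sow. It was 19810 to 38490 CPM in Milk, 24980 to 36170 CPM in Soy and 26140 to 29800 CPM in M + G, so M + E2 overlapped Milk. Germ cell markers summed to 292 to 342 CPM in M + E2, 190 to 226 CPM in Sow, 130 to 194 CPM in Milk, 183 to 311 CPM in Soy and 162 to 221 CPM in M + G, so M + E2 overlapped Soy. KIT alone made up 187 to 240 CPM of the sum in M + E2. Of 7 tested germ cell markers none was called against Sow or Milk, and their median difference was 0.23 and 0.61. Besides KIT, the mean level was higher in M + E2 than in Sow for DND1 (13.7 and 9.82 CPM), TDRD1 (13.9 and 11.3 CPM) and ZBTB16 (51.1 and 33.8 CPM). DDX4, MAEL and UCHL1 had differences of -0.60, -0.53 and -0.54 against Sow (log2), so the markers did not share a direction. Whether these shifts bear on the levels of SOX9, WT1, DMRT1 and GATA4 was not tested.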

How the data were processed

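The authors deposited 1 table of read counts per gene for 15 libraries of testis RNA, not normalised. Per the study's methods, single-end reads were trimmed and mapped in CLC Genomics Workbench, first to a curated pig gene library, with the reads left over then mapped to the Sscrofa11.1 genome. The methods there drop the library Sow 2 for correlations that were too low, and so did the fit here. Strand handling is not given in the sources used here. Gene positions are RefSeq's, matched by symbol on Sscrofa11.1.

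Counts were tested with edgeR 4.0.16 (R 4.3.3) by quasi-likelihood in 1 fit of 14 libraries, with TMM scaling and filterByExpr (minimum count 10), which left 15634 genes. A diet's libraries are separate samples by their labels, and p-values measure the spread between them. Calls used an adjusted p of 0.05 and a change of 2-fold. FOXL2 was under the filter and was taken from the fit without it. Alternatives were all 3 Sow libraries, each library left out, no filter, a minimum of 10 counts in each library, size factors of DESeq2 in edgeR, DESeq2 1.42.0 itself, adjusted p alone, only the groups compared, edgeR's exact test and a replicate block. A fit without Milk 2, Soy 3 and M + G 2 was added after seeing the data. Simulated data were used to test the scripts.

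By their replicate numbers, Milk and M + G libraries deviated together (r = 0.231, 0.492 and 0.413), and Milk and M + E2 did not (r = -0.06, -0.09 and -0.32). The members and gene lists were chosen with earlier results of these data known. All listed genes are described, likeness names the 2 nearest genes, and from each pathway list, by M + E2 against Sow, were named the genes called or else those with the smallest p, the gene with the highest level, and targets of SOX9 or FOXL2. LGR4, LGR6, INHBA, GADD45G, FGF9, DHH, the Sertoli, Leydig and germ cell markers and the oocyte genes were named after their values were seen.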

Additional observations from a re-analysis of the deposited data

How the results depend on the processing

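No member was called in the fit reported, and a few alternatives called 1 or 2. Across the 5 diets, DESeq2 called 1 (WT1, adjusted p = 0.0424), and leaving out each library in turn gave 0 to 1 (WT1 without Milk 3, adjusted p = 0.0451). In M + E2 against Sow, 1 (SOX8) was called with all 3 Sow libraries (adjusted p = 0.0253), with only the groups compared and with edgeR's exact test (adjusted p = 0.0260). In M + G against Sow the same 3 alternatives each called 1 (NR0B1). In M + E2 against Milk, leaving out each library gave 0 to 2 (SOX9 and GATA4 without Milk 3). The cause was not tested. The difference of RSPO1 in M + G against Milk, 0.51, was reversed to -0.38 without M + G 2 (range -0.38 to 0.99). Over all genes, M + E2 against Sow called 781 genes, and from 2 without Sow 3 to 2767 with all 3 Sow libraries. M + G against Sow called 9 genes, and 1585 with all 3 Sow libraries. The 5 diets at once called 10 genes, and 1168 with all 3 Sow libraries. M + E2 against Milk called 0 genes, and 1256 without Milk 3. With DESeq2, Milk against Sow called 32 genes in place of 3, and M + E2 against the other formulas 132 in place of 3. With edgeR's exact test, Soy against Sow called 54 genes in place of 2. Without Milk 2, Soy 3 and M + G 2 no member was called in any of the 9 tests. With the replicate number as a block, fitted over Milk, M + E2 and M + G only, 0 members were called in M + E2 or M + G against Milk, so the block changed no call. No block could be fitted with Sow or Soy, each of which has an unnumbered column. Of 1052 values for single genes under alternatives, 980 kept their direction and side of the threshold, 54 gained the threshold, 17 lost it and 1 turned. Counts of 18 reads limit what can be said of FOXL2, and 155 reads what can be said of RSPO1.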
